A study of Mus musculus with 22 samples.

Results

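The solute carrier (SLC) genes that gamma-delta thymocytes transcribe were described across 2 gamma-chain subsets and 3 stages of maturation. A gene was included if its symbol began with Slc, if it had a probe set with a single gene symbol, and if the mean of its highest-mean probe set over the 22 arrays exceeded the median of all values in the table (log2 4.55). Of 329 such genes on the array, 143 lay above that level. Slc2a1, Slc2a3, Slc16a3, Slc35b4 and Slc35d1 were left out by name, as was Slc15a1, which lay below it, and 138 remained. The level thus chose the genes and is given only as a description. Slc12a4 (4.58), Slc36a4 (4.57) and Slc38a7 (4.56) lay just above it, and Slc25a29 (4.48), Slc39a14 (4.46) and Slc37a2 (4.42) just below. All 138 genes passed the filter for testing. Beside the genes named Slc with a number, they included 1 organic anion transporter of the Slco kind, and 3 (Slc9a3r1, Slc4a1ap and Slc7a6os) that carry the prefix without being carriers.

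RNA came from thymocytes of female C57BL/6 mice, 8 weeks old, for which the labels name no treatment or engineered allele. The cells were sorted by the gamma chain of their receptor, Vgamma1.1+ or Vgamma2+ in the labels (here Vg1.1+ and Vg2+), and by CD24, carried by immature thymocytes, and CD73, an ectoenzyme that appears on cells committed to the gamma-delta lineage. Vg1.1+ cells gave 4 CD24+CD73-, 3 CD24+CD73+ and 4 CD24-CD73+ arrays, and Vg2+ cells gave 3, 4 and 4. The passage from CD24+CD73- to CD24+CD73+ is called CD73 gain, and that from CD24+CD73+ to CD24-CD73+ is called CD24 loss. Replicates are termed biological in the labels, but whether separate mice gave them is not stated there, so the p-values speak only of the spread between these samples.

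SLC proteins move small molecules across membranes without splitting ATP themselves: they let a solute run down its gradient, exchange one solute for another, or tie uptake to the gradient of sodium or protons. The plasma membrane carriers set which amino acids, ions, nucleosides and metals enter a cell, the SLC25 family serves the inner mitochondrial membrane, and the SLC30 and SLC39 families move zinc out of and into the cytosol. Thymocytes that receive a receptor signal change size and metabolism, and amino acid carriers such as the CD98 heterodimer are known to be raised on activated T cells.

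Values are log2 intensities, so a difference of 1 is a doubling, and each array carries equal weight. The SD of the values of an array lay between 1.81 and 2.09 except in Vg1.1+ CD24-CD73+ replicate 1 (1.61) and Vg2+ CD24+CD73+ replicate 3 (1.71), and the calls and counts are given with and without this pair. Cd3e, Cd3g, Cd3d and Cd247, which encode the CD3 chains shared by all T cells, lay above the table median in every group. Nt5e, which encodes CD73, had group means of 3.75 and 3.42 in the CD24+CD73- cells of Vg1.1+ and Vg2+ and of 7.22 to 8.33 in the CD73+ groups. Of the marker lists of other cells, 0 of 3 measured erythroid genes passed the testing filter. Cd79b passed among 3 B-cell genes (group means 6.85 to 8.50; Cd79a and Ms4a1 did not pass) and Epcam among 4 of thymic epithelium (4.89 to 5.99; Foxn1, Krt5 and Psmb11 did not). Of 3 mast-cell genes, Cpa3 (3.55 to 9.38) and Kit (5.48 to 7.70), which early thymic progenitors also carry, passed and Tpsb2 did not. In sorted populations, fewer cells of a type and less RNA per cell cannot be told apart.

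A difference somewhere among the 6 groups was called (limma F test, Benjamini-Hochberg adjusted p under 0.05 over 8545 tested genes) for 51 of the 138 solute carrier genes, or 37%, against 37.9% of all tested genes. The range of the 6 group means had a median of 0.47 in the solute carrier genes and 0.50 in all tested genes, and it exceeded 1 in 18 of them (13%, against 15.2%). By these measures the carriers varied about as much as the average tested gene. The flattest were Slc4a2, an anion exchanger, and Slc25a47, each with a range of 0.16, and Slc25a22, Slc22a5 and Slc4a1ap with 0.17. Classes of substance follow the family number, so that of amino acids and peptides also holds the purine nucleobase carrier Slc43a3. By class, the F test called 14 of 19 genes for amino acids and peptides, 7 of 14 for monocarboxylates and organic ions and 10 of 31 mitochondrial carriers. It called 5 of 18 for metals, 4 of 15 for inorganic ions, 3 of 9 for sugars and sodium-coupled solutes, 4 of 10 for vitamins, lipids and haem, and 2 of 17 for nucleosides and nucleotide sugars. The largest range, 2.11, was that of the sodium-proton exchanger gene Slc9a9.

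**Figure D1:**
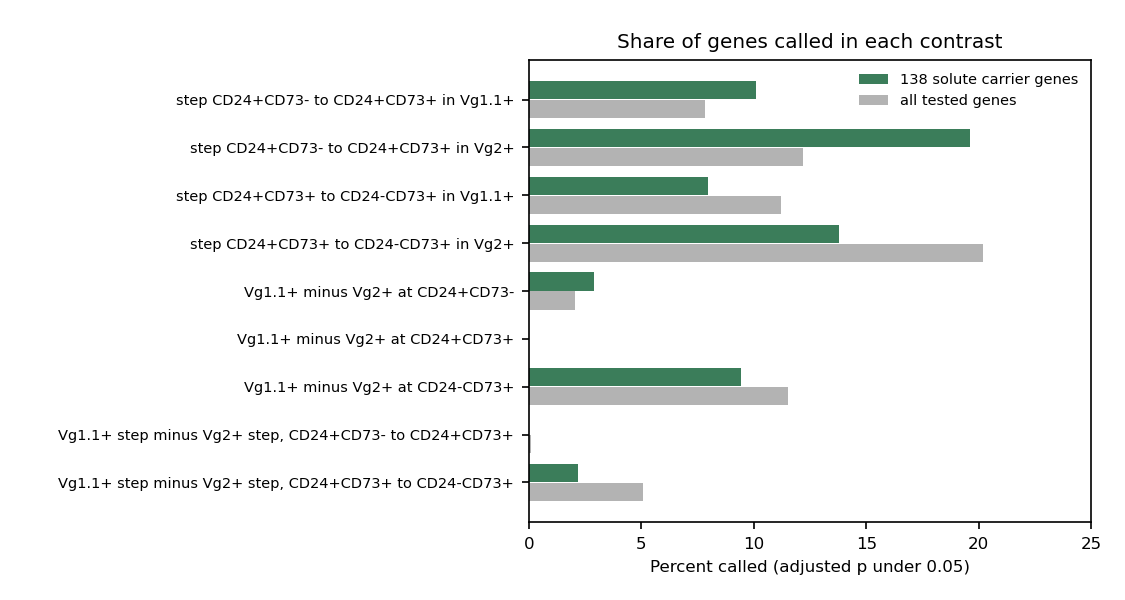
Percent of genes called at an adjusted p under 0.05 in each of 9 contrasts (horizontal bars from 0, in percent of genes), for the 138 solute carrier genes in green and all 8545 tested genes in grey. The share of carriers exceeds that of all genes in both CD73-gain steps (10.1% against 7.82%, 19.6% against 12.2%) and is below it in both CD24-loss steps.

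At CD73 gain, 7 carrier genes rose and 7 fell in Vg1.1+ cells (10.1% of 138, against 7.82% of all tested genes), and 9 rose and 18 fell in Vg2+ cells (19.6%, against 12.2%). By direction, 4.37% of all genes rose and 3.45% fell in Vg1.1+ cells, and 5.82% rose and 6.41% fell in Vg2+ cells. The groups did not overlap for 14 of 14 calls in Vg1.1+ and 25 of 27 in Vg2+ cells. No such share over all tested genes is at hand, so this count only describes the calls. All 7 genes that rose in Vg1.1+ cells also rose in Vg2+ cells (100% of the 7 and 77.8% of the 9), and 5 genes fell in both (71.4% of the 7 and 27.8% of the 18). No gene was called in opposite directions. The median difference over the 138 genes was 0.04 in Vg1.1+ and -0.10 in Vg2+ cells, against 0.00 and -0.05 over all tested genes. Of the 6 genes excluded by name, 4 were also called in each of these steps, which would make 18 and 31 of 144; in each CD24-loss step 2 of the 6 were called.

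No single omission of an array ended 11 of the 14 calls in Vg1.1+ cells and 17 of the 27 in Vg2+ cells, and the others are marked beside their values. Without the pair of arrays of narrow spread, all 14 calls in Vg1.1+ cells held, and 4 of the 27 in Vg2+ cells were lost (Slc16a4, Slc25a35, Slc25a38 and Slc30a6, adjusted p 0.0772 to 0.124); 2 and 7 further genes were called. Beside the Vg1.1+ calls, the alpha-beta lineage transcripts Cd8a and Cd8b1 fell. Of the 5 measured genes of that marker list, Cd8a, Cd8b1 and Ptcra passed the testing filter and Cd4 and Rag2 did not. Their summed level ran from 7.23 to 8.77 (log2) in CD24+CD73- arrays and from 6.29 to 6.48 in CD24+CD73+ arrays. Of that list, Ptcra (group means 5.05 and 4.84) and Rag2 (2.57 and 1.63) also lay lower and Cd4 (4.02 and 4.07) hardly differed. Without the array of highest sum, Vg1.1+ CD24+CD73- replicate 1, 13 carrier genes were called, 12 of them among the 14. Beside the Vg2+ calls, Cd8b1 fell (summed level of its list 6.77 to 7.26 before and 6.43 to 6.97 after). Cd8a of that list also lay lower after the step (group means 4.71 and 4.48). Cd4 (3.45 and 4.02), Ptcra (5.10 and 5.24) and Rag2 (1.73 and 2.01) lay higher, not called or not tested. Cd247 of the CD3 chains fell in Vg2+ cells (group means 8.14 and 7.04). There the myeloid transcripts C1qb, Cd68 and H2-Aa (3 of 4 measured, Csf1r not passing) rose, with a summed level of 6.25 to 6.35 before and 6.84 to 7.22 after. Of the mast-cell list, Cpa3 fell and Kit rose in both subsets, from group means of 8.51 to 6.87 and 5.66 to 7.70 in Vg1.1+ and of 9.38 to 7.66 and 5.95 to 7.502 in Vg2+ cells. The summed level of that list went from 8.37 to 8.97 down to 8.24 to 8.48 in Vg1.1+ arrays and from 9.20 to 9.73 down to 8.61 to 8.69 in Vg2+ arrays. The part of these other transcripts in the carrier results was not tested.

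**Figure D2:**
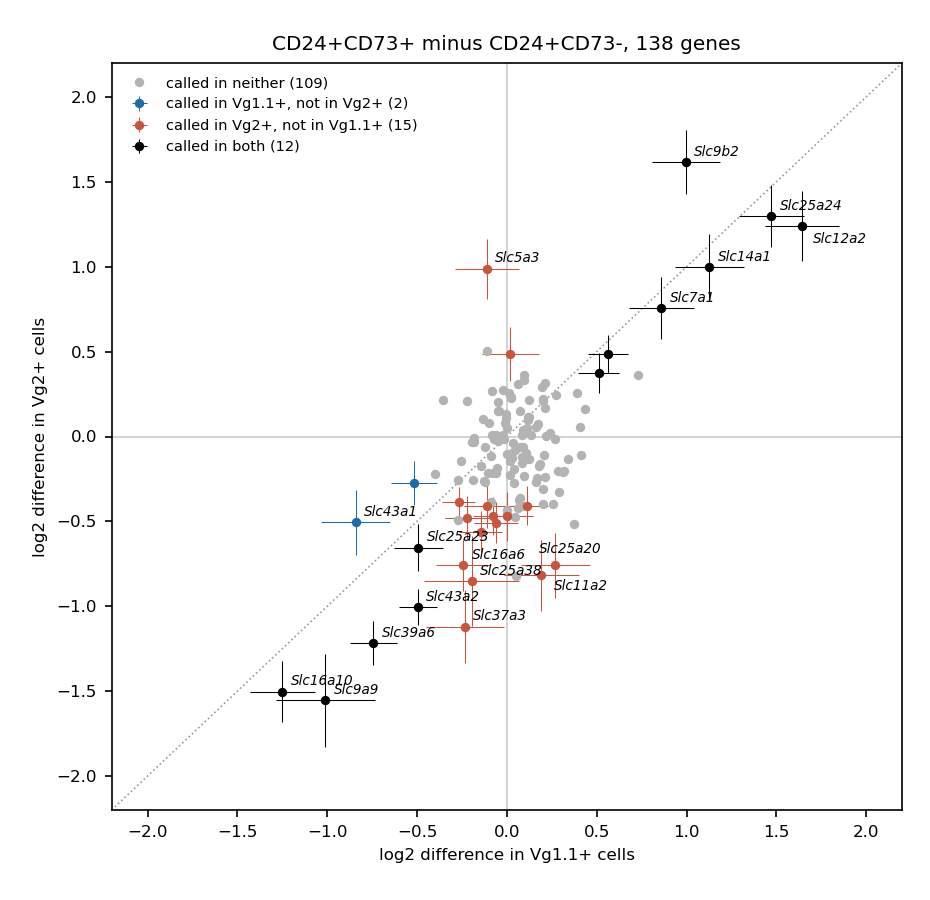
Log2 difference of each of the 138 solute carrier genes at CD73 gain in Vg1.1+ cells (horizontal axis) and Vg2+ cells (vertical axis), with standard errors for called genes and a dotted line of equality. The 12 genes called in both subsets (black) lie in the upper right or lower left, with Slc9b2, Slc25a24 and Slc12a2 highest and Slc16a10 and Slc9a9 lowest.

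Among the carriers of inorganic ions, 3 of 15 rose and 1 fell at CD73 gain in each subset. All tested genes had shares of 4.37% rising and 3.45% falling in Vg1.1+, and 5.82% and 6.41% in Vg2+ cells. Slc12a2 encodes NKCC1, which takes up sodium, potassium and chloride together and sets cell volume. It read 4.32, 4.39, 4.41 and 4.26 in the Vg1.1+ CD24+CD73- arrays and 5.81, 6.10 and 6.04 in the CD24+CD73+ arrays, and 4.15, 3.79 and 4.02 and then 5.30, 5.11, 4.84 and 5.66 in Vg2+ cells. Every CD24+CD73+ array lay above every CD24+CD73- array in both subsets. The difference was 1.64 ± 0.20 in Vg1.1+ (3.12-fold, adjusted p = 9.2e-06) and 1.24 ± 0.20 in Vg2+ cells (adjusted p = 1.9e-04). At CD24 loss it fell in Vg2+ cells to 5.04, 4.28, 4.62 and 4.42 (-0.64 ± 0.19, adjusted p = 0.0188), with overlapping groups. For Slc12a2, omitting any 1 of replicate 4 of the Vg2+ CD24+CD73+ group and replicates 2 and 4 of the Vg2+ CD24-CD73+ group ended the call (adjusted p 0.0612 to 0.079). In Vg1.1+ cells it read 5.05, 5.83, 5.91 and 5.63 after CD24 loss (-0.38 ± 0.20, adjusted p = 0.25, not called; -0.19 ± 0.17 without the narrow pair), and at CD24-CD73+ it was higher in Vg1.1+ than in Vg2+ cells by 1.02 ± 0.19 (adjusted p = 7.1e-04), with replicate 1 of Vg1.1+ just above the highest Vg2+ array.

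Slc9b2 encodes the sodium-proton exchanger NHA2. It read 4.06, 4.54, 4.53 and 4.31 and then 5.40, 5.51 and 5.16 across CD73 gain in Vg1.1+ cells, and 3.88, 3.64 and 4.03 and then 5.80, 5.07, 5.22 and 5.78 in Vg2+ cells. It rose in both, by 0.996 ± 0.19 (adjusted p = 0.00112) and 1.62 ± 0.19 (adjusted p = 2.5e-06), without overlap. After CD24 loss the subsets parted: Vg1.1+ arrays read 5.14, 5.62, 5.08 and 5.10 and Vg2+ arrays 4.35, 4.05, 4.42 and 4.01. The fall in Vg2+ cells was -1.26 ± 0.17 (adjusted p = 1.3e-05) and the difference in Vg1.1+ cells -0.12 ± 0.19 (adjusted p = 0.716), and the difference between the steps passed its own test (1.14 ± 0.26, adjusted p = 0.0098). At CD24-CD73+ the gene was higher in Vg1.1+ cells, by 1.03 ± 0.17 (adjusted p = 2.6e-04).

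Slc9a9, which encodes a sodium-proton exchanger of endosomes, moved the other way. It read 9.62, 9.45, 9.30 and 9.16 and then 8.43, 8.30 and 8.38 in Vg1.1+ cells, and 9.79, 10.001 and 9.62 and then 8.37, 8.65, 7.68 and 8.29 in Vg2+ cells. The fall was -1.01 ± 0.27 in Vg1.1+ (adjusted p = 0.0235) and -1.55 ± 0.27 in Vg2+ cells (adjusted p = 4.1e-04), again without overlap. In Vg1.1+ cells omitting any 1 of replicates 1 and 2 of the Vg1.1+ CD24+CD73- group and replicates 1, 2 and 3 of the Vg1.1+ CD24+CD73+ group ended the call (adjusted p 0.0584 to 0.0894). Slc26a10 rose by 0.56 ± 0.11 in Vg1.1+ (adjusted p = 0.00201) and 0.49 ± 0.11 in Vg2+ cells (adjusted p = 0.00541). Its arrays went from a range of 4.86 to 5.03 at CD24+CD73- to 5.38 to 5.59 at CD24+CD73+ in the subsets together.

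Promoter sequences are shown for genes that moved the same way in both subsets, so that their base composition and motif letters can be compared with those of other genes. Of the 12 genes, 9 had an entry in the RefSeq promoter table (GRCm38.p6), and the sequences are the 250 bases before the transcription start of the 2 largest mean rises and the 2 largest mean falls among the 9, read 5′ to 3′ on the strand of the gene. Slc25a24 lies at chr3:109122899-109123148 (plus strand), Slc9b2 at chr3:135307450-135307699 (plus), Slc16a10 at chr10:40142255-40142504 (minus) and Slc9a9 at chr9:94669642-94669891 (plus). Capitals mark matches on either strand to the E-boxes CAGCTG and CACCTG, bound by E proteins of T-cell precursors, and to the GC box GGGCGG, bound by Sp1.
Slc25a24: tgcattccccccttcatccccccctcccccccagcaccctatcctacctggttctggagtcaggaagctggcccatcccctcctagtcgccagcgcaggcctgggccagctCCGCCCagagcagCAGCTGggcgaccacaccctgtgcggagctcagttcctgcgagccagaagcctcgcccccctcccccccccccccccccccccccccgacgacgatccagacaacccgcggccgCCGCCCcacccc
Slc9b2: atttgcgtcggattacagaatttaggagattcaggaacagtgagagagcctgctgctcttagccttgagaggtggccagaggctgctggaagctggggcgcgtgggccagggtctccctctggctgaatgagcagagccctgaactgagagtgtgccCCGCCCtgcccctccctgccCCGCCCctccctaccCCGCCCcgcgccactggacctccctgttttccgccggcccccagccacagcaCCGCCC
Slc16a10: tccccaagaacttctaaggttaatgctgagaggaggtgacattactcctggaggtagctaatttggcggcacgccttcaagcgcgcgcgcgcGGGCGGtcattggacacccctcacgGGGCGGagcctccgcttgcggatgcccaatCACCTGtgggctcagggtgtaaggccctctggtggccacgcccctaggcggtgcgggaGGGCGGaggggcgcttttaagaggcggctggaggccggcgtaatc
Slc9a9: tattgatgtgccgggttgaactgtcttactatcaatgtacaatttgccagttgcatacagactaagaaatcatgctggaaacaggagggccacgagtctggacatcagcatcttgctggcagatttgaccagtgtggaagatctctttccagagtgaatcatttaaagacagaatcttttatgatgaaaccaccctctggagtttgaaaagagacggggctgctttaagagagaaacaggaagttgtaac
The 4 stretches differ in base composition, with a G and C content of 72.8% for Slc25a24, 65.6% for Slc9b2, 64.4% for Slc16a10 and 42.8% for Slc9a9. CAGCTG matched 1 time in Slc25a24 and CACCTG 1 time in Slc16a10, while GC boxes matched 2 times in Slc25a24, 4 times in Slc9b2 and 3 times in Slc16a10. No letters of these motifs were in the Slc9a9 stretch. Of all 32851 promoter stretches of that length in the table, CAGCTG was in 13%, CACCTG in 17.2% and the GC box in 32.7%. Of the 138 solute carrier genes, 108 had an entry, some with more than 1 stretch. Their 146 stretches held the motifs in 13%, 16.4% and 66.4%. Promoters of all tested genes held them in 11.8%, 15.2% and 57.7%. A match is a match of letters and not a bound site.

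Of the 31 mitochondrial carriers, 2 rose and 1 fell at CD73 gain in Vg1.1+ cells, and 2 rose and 6 fell in Vg2+ cells. Shares over all tested genes were 4.37% and 3.45% in Vg1.1+, and 5.82% and 6.41% in Vg2+ cells. Slc25a24 and Slc25a23 both encode calcium-regulated carriers that exchange ATP-magnesium for phosphate across the inner membrane. Slc25a24 read 5.40, 5.40, 5.37 and 5.24 and then 6.81, 6.92 and 6.75 in Vg1.1+ cells, and 5.46, 4.84 and 4.89 and then 6.38, 6.59, 6.15 and 6.33 in Vg2+ cells. Slc25a23 read 5.65, 5.37, 5.50 and 5.38 and then 5.04, 4.91 and 4.997, and 5.66, 5.81 and 5.51 and then 4.92, 5.13, 4.91 and 5.07. These relatives moved in opposite directions in both subsets with no overlap between stages. Slc25a24 rose by 1.47 ± 0.18 in Vg1.1+ (2.77-fold, adjusted p = 9.2e-06) and 1.30 ± 0.18 in Vg2+ cells (adjusted p = 3.1e-05). Slc25a23 fell in both, with differences of -0.49 ± 0.14 (adjusted p = 0.0276) and -0.65 ± 0.14 (adjusted p = 0.00224). In Vg1.1+ cells omitting any 1 of replicates 1 and 3 of the Vg1.1+ CD24+CD73- group and replicates 1, 2 and 3 of the Vg1.1+ CD24+CD73+ group ended the call (adjusted p 0.0669 to 0.117). The third relative, Slc25a25, differed by 0.13 ± 0.09 and 0.11 ± 0.09 and was not called; it is named as a relative, chosen after its values were seen.

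Of the other mitochondrial carriers called at CD73 gain, none passed the test of a difference between the steps of the subsets. Slc25a30 rose in Vg1.1+ cells by 0.51 ± 0.12 (adjusted p = 0.00621) and in Vg2+ cells by 0.37 ± 0.12 (adjusted p = 0.0378). For Slc25a30, omitting any 1 of replicates 2 and 3 of the Vg2+ CD24+CD73- group and replicates 1 and 2 of the Vg2+ CD24+CD73+ group ended the call (adjusted p 0.0765 to 0.177). Slc25a37, the mitoferrin that brings iron to the matrix for haem and iron-sulphur clusters, went from 5.58, 5.75 and 5.65 to 5.09, 5.33, 4.96 and 5.02 in Vg2+ cells. It fell by 0.56 ± 0.12 (adjusted p = 0.00273), without overlap. Slc25a38, a glycine carrier of haem synthesis, differed by -0.85 ± 0.26 (adjusted p = 0.0372) with overlapping arrays, as Vg2+ CD24+CD73+ replicate 3 read 4.27 and the next lowest 5.03. For Slc25a38, omitting any 1 of replicates 2 and 3 of the Vg2+ CD24+CD73- group and replicates 1 and 3 of the Vg2+ CD24+CD73+ group ended the call (adjusted p 0.078 to 0.212). Slc25a20, which carries acylcarnitines for fatty acid oxidation, fell by 0.76 ± 0.19 (adjusted p = 0.01). For Slc25a20, omitting replicate 1 of the Vg2+ CD24+CD73- group ended the call (adjusted p = 0.0862). Slc25a27 and Slc25a35 fell less, with differences of -0.41 ± 0.11 (adjusted p = 0.0203) and -0.41 ± 0.13 (adjusted p = 0.0403). For Slc25a27, omitting any 1 of replicates 2 and 3 of the Vg2+ CD24+CD73- group ended the call (adjusted p 0.0711 to 0.0903). For Slc25a35, omitting any 1 of replicates 3 and 4 of the Vg1.1+ CD24+CD73- group, replicate 3 of the Vg1.1+ CD24+CD73+ group, replicates 1, 2 and 3 of the Vg2+ CD24+CD73- group and replicates 1 and 3 of the Vg2+ CD24+CD73+ group ended the call (adjusted p 0.0503 to 0.143). At CD24 loss 1 mitochondrial carrier was called in Vg1.1+ cells: Slc25a12, an aspartate-glutamate exchanger of the malate shuttle, went from 6.93, 6.56 and 6.69 to 5.58, 6.197, 6.29 and 6.22. It fell by 0.66 ± 0.17 (adjusted p = 0.0112). For Slc25a12, omitting replicate 1 of the Vg1.1+ CD24+CD73+ group ended the call (adjusted p = 0.0866).

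Of the 19 genes in the class of amino acids and peptides, which includes Slc43a3, 14 varied among the groups. At CD73 gain 1 rose and 3 fell in Vg1.1+ cells (4.37% and 3.45% of all tested genes). In Vg2+ cells 1 rose and 2 fell (5.82% and 6.41% of all tested genes). Slc7a1, which takes up arginine and lysine, read 6.45, 6.22, 6.36 and 6.18 and then 7.25, 7.16 and 7.07 in Vg1.1+ cells, and 5.52, 5.61 and 5.70 and then 5.99, 6.77, 5.97 and 6.74 in Vg2+ cells. It rose by 0.86 ± 0.18 (adjusted p = 0.00334) and 0.76 ± 0.18 (adjusted p = 0.00732), and the Vg2+ CD24+CD73+ arrays split into a lower pair, replicates 1 and 3, and a higher pair, replicates 2 and 4. In Vg1.1+ cells it fell again at CD24 loss, to 6.09, 6.48, 6.77 and 6.47 (-0.71 ± 0.18, adjusted p = 0.0124). For Slc7a1, omitting replicate 1 of the Vg1.1+ CD24+CD73+ group ended the call (adjusted p = 0.0652).

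The SLC43 family, carriers of large neutral amino acids (Slc43a1 and Slc43a2) and of purine nucleobases (Slc43a3), had called falls at CD73 gain in Vg1.1+ cells in all 3 members and in Vg2+ cells in Slc43a2. Slc43a2 read 5.74, 5.49, 5.51 and 5.62, then 5.23, 4.92 and 5.12, then 5.66, 5.70, 5.88 and 5.76 at the successive stages of Vg1.1+ cells. In Vg2+ cells it read 6.26, 6.18 and 6.24, 5.16, 5.26, 5.25 and 5.21 and 5.32, 5.40, 5.65 and 5.60. The middle stage was lowest in both subsets, with a fall of -0.49 ± 0.10 (adjusted p = 0.00346) and -1.004 ± 0.10 (adjusted p = 5.6e-07) at CD73 gain. It rose at CD24 loss in Vg1.1+ cells (0.66 ± 0.10, adjusted p = 1.7e-04) and differed by 0.27 ± 0.10 in Vg2+ cells (adjusted p = 0.0538, and 0.0408 without Vg1.1+ CD24-CD73+ replicate 1). Before CD73 gain it was lower in Vg1.1+ than in Vg2+ cells (-0.64 ± 0.10, adjusted p = 0.00189), with no overlap.

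Slc43a1 read 6.07, 5.99, 6.12 and 6.26, 5.13, 5.34 and 5.33 and 5.17, 4.66, 4.31 and 4.55 at the successive Vg1.1+ stages and 5.62, 5.77 and 5.92, 4.96, 5.02, 5.68 and 5.41 and 4.62, 4.78, 4.15 and 4.24 in Vg2+ cells. It fell at CD73 gain in Vg1.1+ cells (-0.84 ± 0.19, adjusted p = 0.00669) and at CD24 loss in Vg2+ cells (-0.81 ± 0.18, adjusted p = 0.00198). The other steps had differences of -0.51 ± 0.19 (Vg2+ CD73 gain) and -0.59 ± 0.19 (Vg1.1+ CD24 loss), which missed the threshold (adjusted p = 0.0966 and adjusted p = 0.0507). Without the narrow pair these were -0.64 ± 0.16 (adjusted p = 0.00833) and -0.76 ± 0.16 (adjusted p = 0.00268), both called. Slc43a3 read 6.58, 6.38, 6.55 and 6.88, 6.01, 6.08 and 6.16 and 5.37, 5.81, 5.79 and 5.57 in Vg1.1+ cells and 6.15, 6.06 and 6.28, 6.002, 5.998, 5.65 and 5.91 and 4.80, 4.84, 5.004 and 4.78 in Vg2+ cells. The last group was the lowest, below every other array. Slc43a3 fell at both steps in Vg1.1+ cells (-0.52 ± 0.13, adjusted p = 0.0135, and -0.45 ± 0.13, adjusted p = 0.0269). At CD73 gain omitting any 1 of replicate 4 of the Vg1.1+ CD24+CD73- group and replicates 1 and 2 of the Vg1.1+ CD24+CD73+ group ended the call (adjusted p 0.0506 to 0.0809). At CD24 loss omitting any 1 of replicates 1, 2 and 3 of the Vg1.1+ CD24+CD73+ group and replicates 1 and 4 of the Vg1.1+ CD24-CD73+ group ended the call (adjusted p 0.0567 to 0.118). The fall in Vg2+ cells at CD24 loss was -1.03 ± 0.12 (adjusted p = 1.2e-06), and at CD24-CD73+ Vg1.1+ cells lay higher by 0.78 ± 0.12 (adjusted p = 9.5e-05).

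CD98, a heterodimer that exchanges large neutral amino acids, is made of the heavy chain Slc3a2 and a light chain such as Slc7a5 or Slc7a6. Slc3a2 read 6.42, 6.68, 5.87 and 6.61 before and 7.27, 7.12, 7.28 and 7.18 after CD24 loss in Vg2+ cells, and rose by 0.82 ± 0.23 (adjusted p = 0.0138). For Slc3a2, omitting replicate 3 of the Vg2+ CD24+CD73+ group ended the call (adjusted p = 0.0592). In Vg1.1+ cells it read 7.09, 6.79 and 6.89 and then 6.15, 7.64, 7.55 and 7.33, where replicate 1, an array of narrow spread, lay far below the other 3 (0.25 ± 0.25, adjusted p = 0.564, not called). Without that array the difference was 0.59 ± 0.16 and was called (adjusted p = 0.0227), and without the narrow pair it was 0.59 ± 0.12 (adjusted p = 0.00213). Slc7a5 and Slc7a6 were not called at either step, except that without the narrow pair Slc7a5 was higher after CD24 loss in Vg1.1+ cells (0.58 ± 0.18, adjusted p = 0.0421; 0.48 and adjusted p = 0.14 with all arrays). At CD24-CD73+, Slc7a5 read 6.10, 6.42, 6.75 and 6.41 in Vg1.1+ and 5.19, 5.35, 5.75 and 5.79 in Vg2+ cells, higher in Vg1.1+ by 0.90 ± 0.19 (adjusted p = 0.002). Slc7a6 was higher by 0.49 ± 0.14 (adjusted p = 0.0264) with overlapping arrays. For Slc7a6, omitting any 1 of replicates 2, 3 and 4 of the Vg1.1+ CD24-CD73+ group and replicates 1 and 2 of the Vg2+ CD24-CD73+ group ended the call (adjusted p 0.0587 to 0.106). Slc36a4 was higher in Vg1.1+ cells by 0.61 ± 0.16 (adjusted p = 0.0168), also overlapping. For Slc36a4, omitting any 1 of replicate 2 of the Vg1.1+ CD24-CD73+ group and replicates 1 and 2 of the Vg2+ CD24-CD73+ group ended the call (adjusted p 0.0521 to 0.0681). Slc38a9, the lysosomal carrier that reports arginine to mTORC1, fell at CD73 gain in Vg2+ cells (-0.47 ± 0.11, adjusted p = 0.00743). For Slc38a9, omitting replicate 1 of the Vg2+ CD24+CD73- group ended the call (adjusted p = 0.0563).

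**Figure D3:**
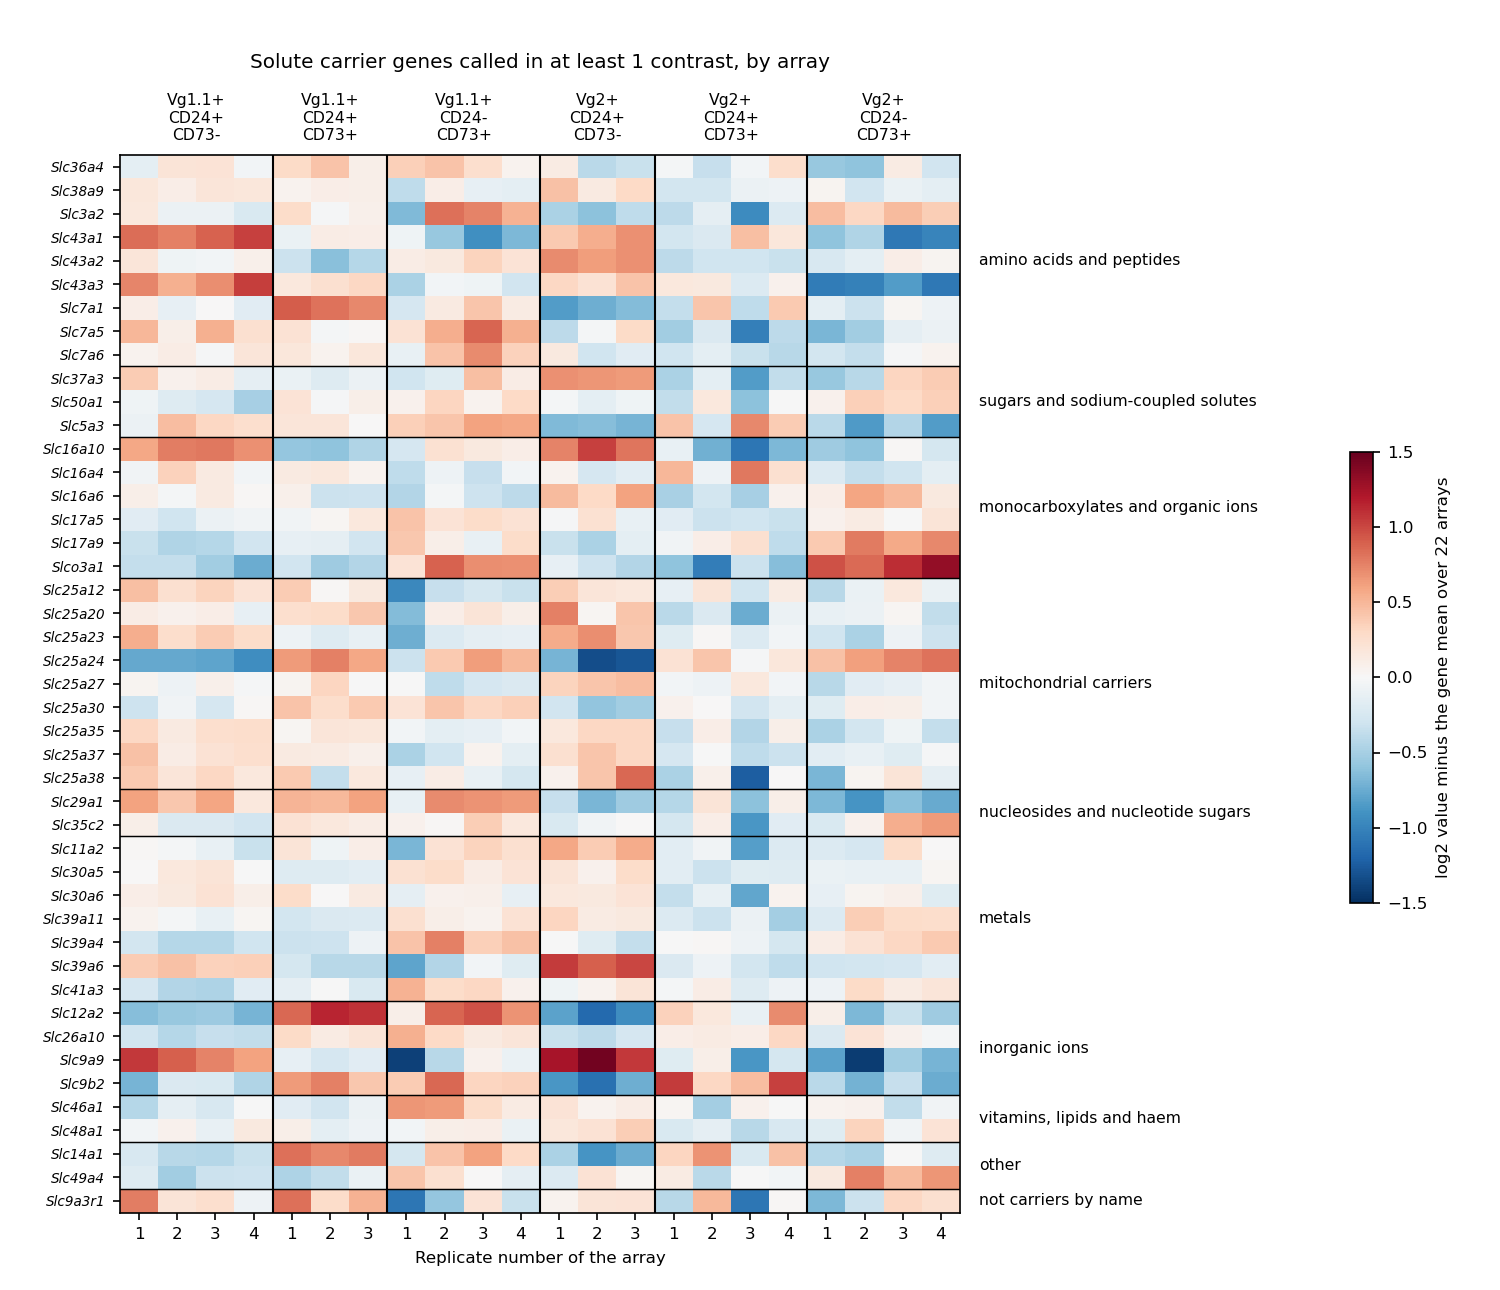
Log2 value of each of the 45 solute carrier genes called in at least 1 contrast, minus the gene's mean over the 22 arrays. Each column is 1 array, grouped by subset and stage, and each row 1 gene, grouped by class as set by family number. Red is above and blue below the mean, and the colour scale stops at 1.5 either way. The CD24+CD73- columns of both subsets share high Slc9a9, Slc16a10 and Slc39a6 and low Slc25a24, Slc12a2 and Slc9b2.

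Among carriers of monocarboxylates and organic ions, 1 of 14 fell at CD73 gain in Vg1.1+ cells (3.45% of all tested genes). In Vg2+ cells 1 rose and 2 fell (5.82% and 6.41% of all tested genes). Slc16a10, which carries aromatic amino acids and thyroid hormones, read 5.98, 6.17, 6.19 and 6.09, 4.83, 4.80 and 4.95 and 5.15, 5.63, 5.55 and 5.51 at the successive Vg1.1+ stages. In Vg2+ cells it read 6.14, 6.43 and 6.21, 5.29, 4.69, 4.32 and 4.73 and 4.88, 4.80, 5.43 and 5.14. It fell at CD73 gain in both subsets, with differences of -1.25 ± 0.18 (adjusted p = 5.6e-05) and -1.502 ± 0.18 (adjusted p = 3.6e-06). At CD24 loss it rose in Vg1.1+ cells by 0.60 ± 0.18 (adjusted p = 0.0324), short of its starting level. For Slc16a10, omitting any 1 of replicates 1, 2 and 3 of the Vg1.1+ CD24+CD73+ group and replicates 2, 3 and 4 of the Vg1.1+ CD24-CD73+ group ended the call (adjusted p 0.0553 to 0.111). In Vg2+ cells the difference was 0.30 ± 0.17 (adjusted p = 0.226, not called; 0.16 ± 0.15 without the narrow pair).

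CD24 loss called 7 higher and 4 lower carrier genes in Vg1.1+ cells (7.97% of 138, against 11.2% of all tested genes, of which 4.28% rose and 6.92% fell), and 11 higher and 8 lower in Vg2+ cells (13.8%, against 20.2%, with 10.3% rising and 9.91% falling). Both shares lay below that of all tested genes. The groups did not overlap for 11 of 11 calls in Vg1.1+ and 13 of 19 in Vg2+ cells, again without a share over all tested genes. Slc39a4 and Slco3a1 rose in both subsets (28.6% of the 7 and 18.2% of the 11) and Slc43a3 fell in both (25% of the 4 and 12.5% of the 8). The median difference was 0.00 in Vg1.1+ and 0.11 in Vg2+ cells, against -0.04 and 0.02 over all genes. In Vg1.1+ cells only 4 of the 11 calls held without any 1 array. The count dropped to 5 without Vg1.1+ CD24+CD73+ replicate 1 and to 7 without replicate 2 or without replicate 3 of that group of 3. In Vg2+ cells 11 of 19 calls held. Without the narrow pair of arrays, 8 of the 11 were kept (Slc41a3, Slc43a3 and Slc9a3r1 lost, adjusted p 0.0513 to 0.0718) and 16 of the 19 (Slc35c2, Slc48a1 and Slc50a1 lost, 0.0614 to 0.126), and 5 and 6 further genes were called. Beside these calls Cpa3 and Kit of the mast-cell list fell in both subsets. Group means of Cpa3 went from 6.87 to 3.55 in Vg1.1+ and from 7.66 to 4.05 in Vg2+ cells. Those of Kit went from 7.70 to 5.74 and from 7.502 to 5.48. Tpsb2 of that list, not tested and with these means below the table median, lay the other way. Its group means went from 2.73 to 4.02 in Vg1.1+ and from 3.503 to 4.26 in Vg2+ cells. In Vg2+ cells its arrays overlapped between the stages. The summed level of the list ran from 8.24 to 8.48 before and 6.26 to 6.51 after in Vg1.1+ arrays, and from 8.61 to 8.69 and 6.15 to 6.82 in Vg2+ arrays. Cd79b of the B-cell list fell in Vg1.1+ cells (7.88 to 6.85) and rose in Vg2+ cells (7.51 to 8.50), and the steps differed by their own test. Of that list, Ms4a1 (1.85 to 2.45 and 2.44 to 2.31, not tested) lay the other way in both subsets. Cd79a (4.20 to 4.12 and 3.47 to 3.98, not tested) lay the same way. Epcam fell in both subsets (5.98 to 4.89 and 5.99 to 5.04). In Vg1.1+ cells Foxn1 (3.63 to 3.71), Krt5 (3.59 to 3.74) and Psmb11 (3.32 to 3.65) of its list, not tested, lay the other way. In Vg2+ cells Krt5 (3.88 to 3.61) and Psmb11 (3.59 to 3.56) lay the same way and Foxn1 (3.87 and 3.87) hardly differed. Cd8b1 rose in both subsets (4.24 to 5.42 and 4.81 to 5.61). Of its list, Cd4 (4.02 to 3.71, not tested) and Ptcra (5.24 to 5.03, not called) lay the other way in Vg2+ cells. The others lay the same way, as did the whole list in Vg1.1+ cells. Cd68 fell in Vg2+ cells (5.83 to 5.20). Their part in the carrier results was not tested.

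**Figure D4:**
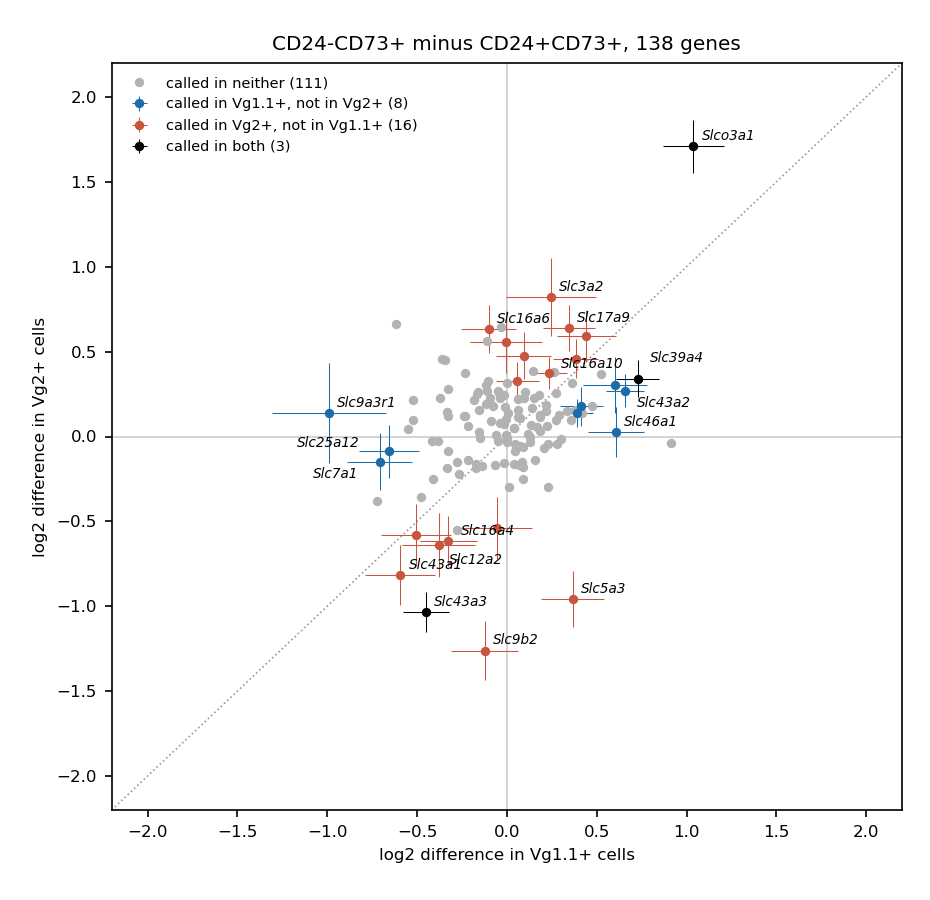
Log2 difference of each of the 138 solute carrier genes at CD24 loss in Vg1.1+ cells (horizontal axis) and Vg2+ cells (vertical axis), with standard errors for called genes and a dotted line of equality. Slco3a1 is the highest point in both directions at 1.04 and 1.71, and Slc9b2 and Slc5a3 lie far below the line.

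Slco3a1, an organic anion transporter of prostaglandins and thyroid hormone, had the largest called rise at CD24 loss in both subsets. It read 5.44, 5.19 and 5.28 and then 5.93, 6.61, 6.42 and 6.41 in Vg1.1+ cells, and 5.12, 4.69, 5.40 and 5.08 and then 6.68, 6.58, 6.83 and 7.05 in Vg2+ cells. The stages did not overlap, and the rise was 1.04 ± 0.17 (adjusted p = 2.1e-04) and 1.71 ± 0.16 (3.27-fold, adjusted p = 4.3e-08). Slc17a9, the vesicular nucleotide transporter that loads ATP, rose in Vg2+ cells by 0.64 ± 0.13 (adjusted p = 0.00126). At CD24-CD73+ it was lower in Vg1.1+ than in Vg2+ cells (-0.45 ± 0.13, adjusted p = 0.0296) with overlap. For Slc17a9, omitting any 1 of replicates 2 and 3 of the Vg1.1+ CD24-CD73+ group and replicates 2 and 4 of the Vg2+ CD24-CD73+ group ended the call (adjusted p 0.0734 to 0.109). Slc17a5, which exports sialic acid from lysosomes, rose in Vg2+ cells by 0.37 ± 0.10 (adjusted p = 0.00692).

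Within the monocarboxylate family, Slc16a6 and Slc16a4 moved in opposite directions in Vg2+ cells. Slc16a6 read 6.81, 6.63 and 6.94, 5.85, 6.06, 5.84 and 6.40 and 6.44, 6.93, 6.83 and 6.48 at the successive stages, falling at CD73 gain (-0.76 ± 0.15, adjusted p = 0.00167) and rising at CD24 loss (0.63 ± 0.14, adjusted p = 0.00248). Slc16a4 read 4.66, 4.36 and 4.46, 5.11, 4.54, 5.41 and 4.86 and 4.41, 4.26, 4.32 and 4.46. Its rise at CD73 gain was 0.49 ± 0.16 (adjusted p = 0.0486), with overlap. For Slc16a4, omitting any 1 array except replicate 2 of the Vg1.1+ CD24+CD73- group, replicate 1 of the Vg1.1+ CD24-CD73+ group and replicate 2 of the Vg2+ CD24+CD73+ group ended the call (adjusted p 0.0506 to 0.192). Its fall at CD24 loss was -0.62 ± 0.15 (adjusted p = 0.00387). Slc16a6 in Vg1.1+ cells was not called at CD24 loss (-0.10 ± 0.15) and read 5.90, 6.30, 6.03 and 5.95 at the end, below every Vg2+ array of that stage (-0.62 ± 0.14, adjusted p = 0.00463). The difference of the CD24-loss steps for Slc16a6 was -0.73 ± 0.21 (adjusted p = 0.0459). For Slc16a6, omitting any 1 array except replicate 2 of the Vg1.1+ CD24-CD73+ group, replicates 2 and 4 of the Vg2+ CD24+CD73+ group and replicates 1 and 4 of the Vg2+ CD24-CD73+ group ended the call (adjusted p 0.0516 to 0.172).

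Among 18 carriers of metals, 1 fell at CD73 gain in Vg1.1+ cells and 5 fell in Vg2+ cells, and none rose in either. Over all tested genes, 4.37% rose and 3.45% fell in Vg1.1+, and 5.82% rose and 6.41% fell in Vg2+ cells. Slc39a6 encodes ZIP6, which brings zinc into the cytosol. It read 7.01, 7.07, 6.97 and 6.98 and then 6.36, 6.21 and 6.21 in Vg1.1+ cells, and 7.67, 7.53 and 7.63 and then 6.42, 6.55, 6.36 and 6.25 in Vg2+ cells. The fall was -0.74 ± 0.13 (adjusted p = 5.7e-04) and -1.22 ± 0.13 (adjusted p = 8.0e-07), with all later arrays below all earlier ones. Before CD73 gain it was lower in Vg1.1+ cells (-0.60 ± 0.13, adjusted p = 0.0163). For Slc39a6, omitting any 1 of replicate 3 of the Vg1.1+ CD24+CD73- group and replicates 1 and 3 of the Vg2+ CD24+CD73- group ended the call (adjusted p 0.0553 to 0.0811). Slc30a5 and Slc30a6 encode partners of a zinc exporter that loads the secretory pathway. Slc30a5 fell in Vg2+ cells from 6.497, 6.37 and 6.59 to 6.15, 5.99, 6.13 and 6.11 (-0.39 ± 0.09, adjusted p = 0.00571). Slc30a6 fell by 0.47 ± 0.14 (adjusted p = 0.0339). For Slc30a6, omitting any 1 of replicates 1, 2 and 3 of the Vg2+ CD24+CD73- group and replicates 1 and 3 of the Vg2+ CD24+CD73+ group ended the call (adjusted p 0.0759 to 0.113). Slc39a11, also of the ZIP family, fell by 0.48 ± 0.12 (adjusted p = 0.0134). For Slc39a11, omitting replicate 1 of the Vg2+ CD24+CD73- group ended the call (adjusted p = 0.0783). Slc11a2, the proton-coupled iron carrier DMT1, read 7.003, 6.81 and 6.99 and then 6.27, 6.37, 5.60 and 6.23, a fall of -0.82 ± 0.21 (adjusted p = 0.0113) without overlap.

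At CD24 loss the called metal carriers were all higher, 3 of 18 in Vg1.1+ and 2 of 18 in Vg2+ cells. By comparison, 4.28% of all tested genes rose and 6.92% fell in Vg1.1+, and 10.3% rose and 9.91% fell in Vg2+ cells. Slc39a4, the zinc importer ZIP4, read 4.81, 4.82 and 5.05 and then 5.55, 5.89, 5.48 and 5.57 in Vg1.1+ cells, a rise of 0.73 ± 0.12 (adjusted p = 2.1e-04). In Vg2+ cells it read 5.12, 5.14, 5.05 and 4.87 and then 5.24, 5.35, 5.45 and 5.53, a rise of 0.34 ± 0.11 (adjusted p = 0.0311). For Slc39a4, omitting any 1 of replicates 3 and 4 of the Vg2+ CD24+CD73+ group and replicates 3 and 4 of the Vg2+ CD24-CD73+ group ended the call (adjusted p 0.055 to 0.103). Slc30a5 rose in Vg1.1+ cells by 0.39 ± 0.09 (adjusted p = 0.0061), and Slc41a3, a magnesium carrier, by 0.42 ± 0.12 (adjusted p = 0.0304). For Slc41a3, omitting any 1 of replicates 1 and 3 of the Vg1.1+ CD24+CD73+ group and replicate 1 of the Vg1.1+ CD24-CD73+ group ended the call (adjusted p 0.086 to 0.146). Slc39a11 rose in Vg2+ cells by 0.46 ± 0.12 (adjusted p = 0.00627) with overlap, since Vg2+ CD24-CD73+ replicate 1 stayed at 4.45. At the last stage Slc30a5 was higher in Vg1.1+ cells by 0.28 ± 0.08 (adjusted p = 0.0323). For Slc30a5, omitting any 1 of replicates 2 and 4 of the Vg1.1+ CD24-CD73+ group and replicates 1, 2 and 3 of the Vg2+ CD24-CD73+ group ended the call (adjusted p 0.0677 to 0.084).

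The 2 carrier genes called between the subsets at both the first and the last stage were those of nucleosides and of myo-inositol. Slc29a1, the equilibrative nucleoside transporter that also takes up the adenosine that CD73 makes, read 6.58, 6.38, 6.57 and 6.14, 6.48, 6.47 and 6.58 and 5.86, 6.69, 6.65 and 6.62 at the successive Vg1.1+ stages and 5.63, 5.29 and 5.44, 5.55, 6.17, 5.36 and 6.07 and 5.31, 5.10, 5.35 and 5.22 in Vg2+ cells. It was higher in Vg1.1+ cells by 0.96 ± 0.20 at CD24+CD73- (adjusted p = 0.0104) and by 1.21 ± 0.18 at CD24-CD73+ (adjusted p = 6.8e-05). At CD24+CD73-, omitting any 1 of replicates 2 and 3 of the Vg2+ CD24+CD73- group ended the call (adjusted p 0.0535 to 0.0787). No array overlapped between the subsets at either stage. It fell at CD24 loss in Vg2+ cells (-0.54 ± 0.18, adjusted p = 0.0391). For Slc29a1, omitting any 1 of replicates 2 and 4 of the Vg2+ CD24+CD73+ group and replicates 1, 2, 3 and 4 of the Vg2+ CD24-CD73+ group ended the call (adjusted p 0.0529 to 0.128). Slc35c2, a relative of the Golgi GDP-fucose carrier, was higher after CD24 loss in Vg2+ cells (0.56 ± 0.18, adjusted p = 0.0353) with overlap. For Slc35c2, omitting any 1 of replicates 1 and 3 of the Vg2+ CD24+CD73+ group and replicates 3 and 4 of the Vg2+ CD24-CD73+ group ended the call (adjusted p 0.0608 to 0.149).

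Slc5a3, which takes up myo-inositol with sodium and serves as an osmolyte carrier, took a different course in the subsets. Vg1.1+ arrays read 5.83, 6.38, 6.24 and 6.17, 6.10, 6.10 and 5.93 and 6.28, 6.34, 6.52 and 6.503 at the successive stages. Vg2+ arrays read 5.26, 5.29 and 5.23, 6.36, 5.67, 6.65 and 6.31 and 5.52, 5.08, 5.48 and 5.08. The gene was low in Vg2+ cells at both ends, and replicate 2 of the middle group was the lowest there. In Vg2+ cells it rose by 0.99 ± 0.18 (adjusted p = 4.8e-04) and then fell (-0.96 ± 0.16, adjusted p = 1.7e-04), and in Vg1.1+ cells it differed by -0.11 ± 0.18 (adjusted p = 0.846) and 0.37 ± 0.18 (adjusted p = 0.201). The CD24-loss steps differed from each other by 1.32 ± 0.24 (adjusted p = 0.00161), and the CD73-gain steps by -1.10 ± 0.25 (adjusted p = 0.127). Between subsets it was higher in Vg1.1+ cells by 0.90 ± 0.18 at CD24+CD73- (adjusted p = 0.00791) and by 1.12 ± 0.16 at CD24-CD73+ (adjusted p = 5.0e-05). At the first of these, omitting replicate 3 of the Vg2+ CD24+CD73- group ended the call (adjusted p = 0.0505).

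The other sugar, vitamin and haem carriers moved singly. Slc37a3, of the sugar-phosphate exchanger family, fell at CD73 gain in Vg2+ cells from 6.94, 6.92 and 6.90 to 5.78, 6.11, 5.42 and 5.88 (-1.12 ± 0.22, adjusted p = 0.00101). Slc50a1, a sugar uniporter, was higher after CD24 loss in Vg2+ cells (0.48 ± 0.14, adjusted p = 0.0184) with overlap. For Slc50a1, omitting any 1 of replicates 1 and 3 of the Vg2+ CD24+CD73+ group and replicates 2 and 4 of the Vg2+ CD24-CD73+ group ended the call (adjusted p 0.0506 to 0.0809). Slc48a1, which moves haem out of endosomes, fell at CD73 gain in Vg2+ cells (-0.51 ± 0.12, adjusted p = 0.00692). For Slc48a1, omitting replicate 3 of the Vg2+ CD24+CD73- group ended the call (adjusted p = 0.0507). It was higher again after CD24 loss (0.33 ± 0.11, adjusted p = 0.0419), with overlap. For Slc48a1, omitting any 1 of replicates 1 and 2 of the Vg1.1+ CD24+CD73- group, replicate 3 of the Vg1.1+ CD24+CD73+ group, replicate 2 of the Vg2+ CD24+CD73- group, replicates 1, 3 and 4 of the Vg2+ CD24+CD73+ group and replicates 2 and 4 of the Vg2+ CD24-CD73+ group ended the call (adjusted p 0.0503 to 0.159). Slc46a1, the proton-coupled folate carrier, read 4.55, 4.43 and 4.64 and then 5.38, 5.37, 4.999 and 4.85 across CD24 loss in Vg1.1+ cells. The rise was 0.61 ± 0.16 (adjusted p = 0.0133). For Slc46a1, omitting replicate 2 of the Vg1.1+ CD24+CD73+ group ended the call (adjusted p = 0.071). At the last stage it was higher than in Vg2+ cells by 0.50 ± 0.15 (adjusted p = 0.027). For Slc46a1, omitting any 1 of replicates 1 and 2 of the Vg1.1+ CD24-CD73+ group and replicates 3 and 4 of the Vg2+ CD24-CD73+ group ended the call (adjusted p 0.0536 to 0.101). Slc14a1, a urea channel, read 7.19, 7.01, 6.99 and 7.09 and then 8.25, 8.14 and 8.20 at CD73 gain in Vg1.1+ cells, and 6.95, 6.54 and 6.68 and then 7.75, 8.10, 7.19 and 7.86 in Vg2+ cells. It rose by 1.13 ± 0.19 (adjusted p = 4.4e-04) and 0.9996 ± 0.19 (adjusted p = 0.00104), and was lower after CD24 loss in Vg2+ cells (-0.58 ± 0.18, adjusted p = 0.0248), with overlap. For Slc14a1, omitting any 1 of replicates 1, 2 and 4 of the Vg2+ CD24+CD73+ group and replicates 1 and 2 of the Vg2+ CD24-CD73+ group ended the call (adjusted p 0.0532 to 0.0887). Slc49a4, a lysosomal carrier, rose in Vg2+ cells at CD24 loss (0.59 ± 0.15, adjusted p = 0.00757). The scaffold gene Slc9a3r1, which is no carrier, was lower after CD24 loss in Vg1.1+ cells (-0.99 ± 0.32, adjusted p = 0.0496). For Slc9a3r1, omitting any 1 array except replicate 1 of the Vg1.1+ CD24+CD73- group, replicate 3 of the Vg1.1+ CD24-CD73+ group, replicates 2 and 3 of the Vg2+ CD24+CD73+ group and replicates 1 and 3 of the Vg2+ CD24-CD73+ group ended the call (adjusted p 0.0537 to 0.209).

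**Figure D5:**
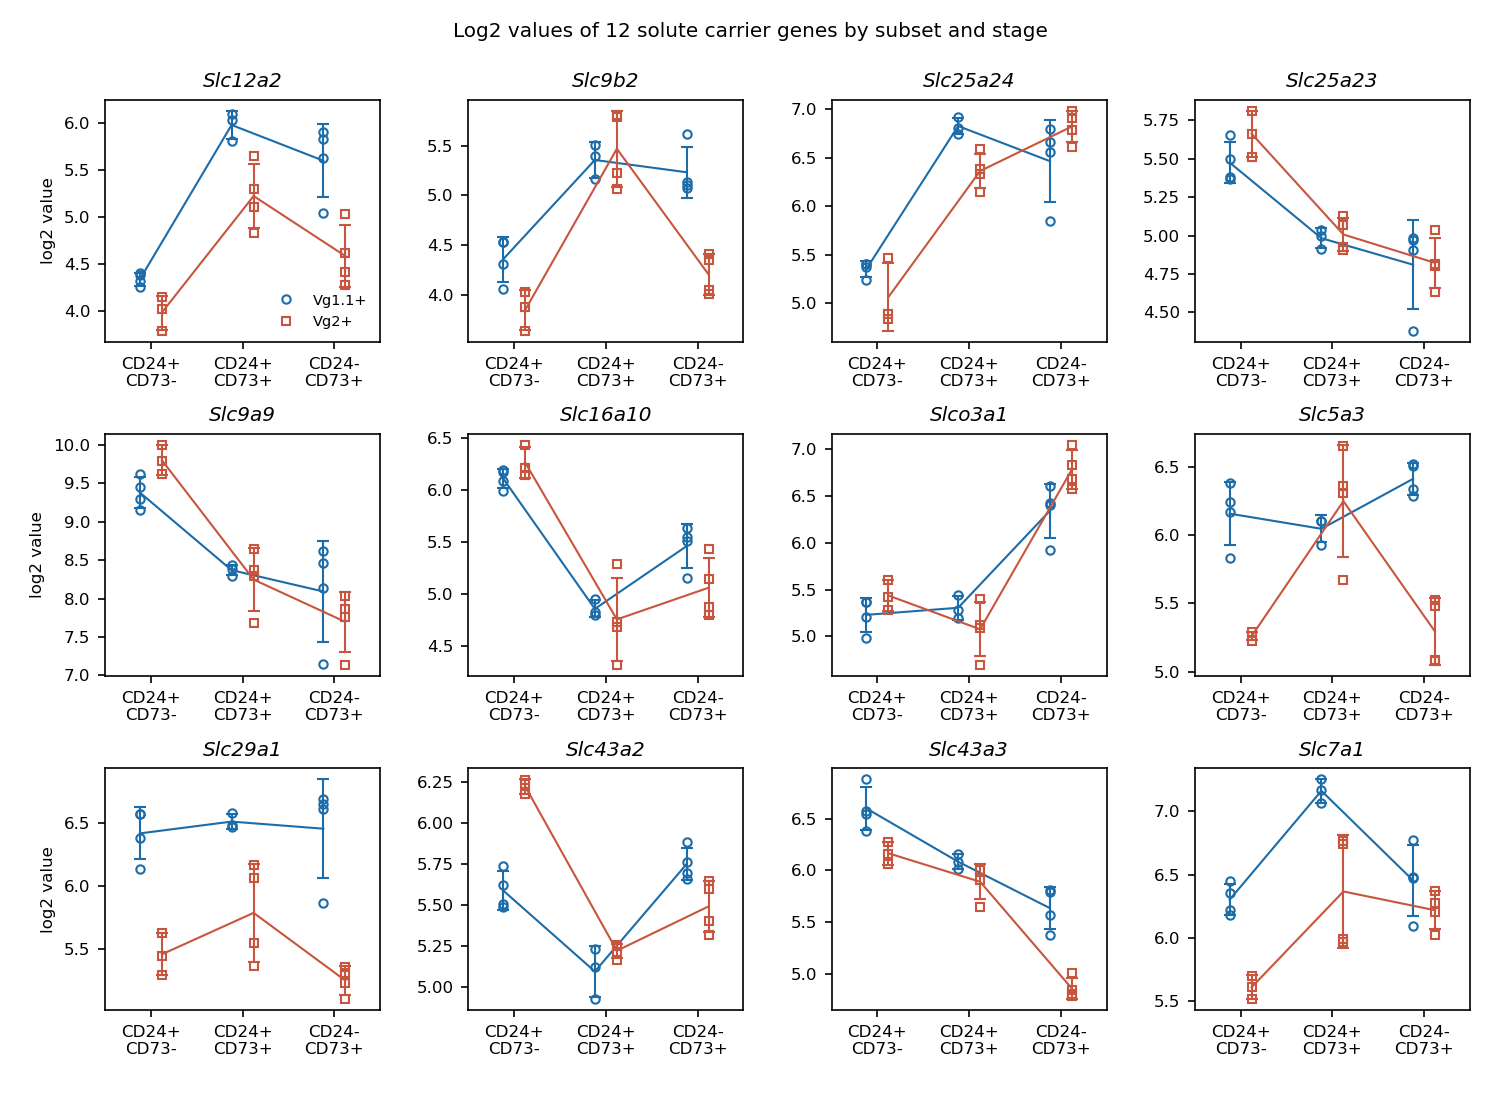
Log2 values of 12 solute carrier genes at the 3 stages in Vg1.1+ (blue circles) and Vg2+ cells (red squares); points are arrays, lines join group means and bars are 1 SD (n = 3 or 4). Slc12a2, Slc9b2 and Slc25a24 rise from the first to the second stage in both subsets, and Slc29a1 and Slc5a3 stay higher in Vg1.1+ cells at the first and the last stage.

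Set directly against each other, the subsets differed in 4 carrier genes at CD24+CD73- (2 higher and 2 lower in Vg1.1+, 2.9% against 2.05% of all tested genes), in 0 at CD24+CD73+ (limma, against 0.0117%; 33 carrier genes, or 23.9%, had an unadjusted p under 0.05, against 18.5% of all tested genes), and in 13 at CD24-CD73+ (11 higher and 2 lower, 9.42% against 11.5%). By direction, 1.56% of all genes were higher and 0.492% lower at the first stage, and 5.79% and 5.72% at the last. The groups did not overlap for 4 of 4 and 10 of 13 of these calls, a description with no share over all tested genes. At the last stage the carriers higher in Vg1.1+ cells were 4 of the amino acid class (with Slc43a3, a purine nucleobase carrier) and 2 of inorganic ions. The others were 1 each of metals, mitochondrial solutes, nucleosides, sugars and vitamins. Slc25a30 was among them (0.33 ± 0.11, adjusted p = 0.0486). For Slc25a30, omitting any 1 array except replicate 1 of the Vg1.1+ CD24-CD73+ group, replicate 1 of the Vg2+ CD24+CD73- group, replicates 1, 2 and 3 of the Vg2+ CD24+CD73+ group and replicate 2 of the Vg2+ CD24-CD73+ group ended the call (adjusted p 0.0504 to 0.149). The count of 0 at CD24+CD73+ became 1 without Vg1.1+ CD24-CD73+ replicate 1 and 5 without Vg2+ CD24+CD73+ replicate 2, an array outside the narrow pair. The count of 4 at CD24+CD73- became 8 without Vg1.1+ CD24-CD73+ replicate 1 and 1 without Vg2+ CD24+CD73- replicate 3. The count of 13 at CD24-CD73+ became 22 without Vg1.1+ CD24-CD73+ replicate 1. Without the narrow pair, the counts were 11, 0 and 25, with all 4 and 12 of the 13 calls among them (Slc46a1 lost, adjusted p = 0.0584). Beside the first comparison Cpa3 was lower in Vg1.1+ cells (group means 8.51 and 9.38). Beside the last, Cd79b (6.85 and 8.50) and C1qb (3.79 and 4.43) were lower and Nt5e (8.33 and 7.33) higher. Of their lists, Cd79a (4.12 and 3.98), Ms4a1 (2.45 and 2.31) and Cd68 (5.61 and 5.20) lay the other way, not called or not tested. H2-Aa (4.44 and 4.77, not called) lay the same way, and Csf1r (3.11 and 3.10, not tested) hardly differed. Mean summed levels were 7.16 and 8.58 for the B-cell list and 6.54 and 6.58 for the myeloid list. Their part in the carrier results was not tested.

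Whether the subsets took each step differently was tested as the difference of the steps. At CD73 gain 0 of 138 carrier genes passed in limma (0.0936% of all tested genes, 0.0351% higher and 0.0585% lower), 24 having an unadjusted p under 0.05 (17.4%, against 9.48% of all tested genes). Slc35b4 and Slc35d1, both excluded by name, did pass, so the 0 is partly set by that choice. It became 1 without Vg1.1+ CD24-CD73+ replicate 1 and 1 without Vg2+ CD24+CD73+ replicate 2. At CD24 loss Slc5a3, Slc9b2 and Slc16a6 passed, or 2.17% against 5.06% of all tested genes. Of the latter, 1.83% had a higher and 3.23% a lower step in Vg1.1+ cells. The count became 6 without Vg2+ CD24+CD73+ replicate 2. Without the narrow pair it was 4, with Slc5a3 and Slc9b2 kept and Slc16a6 lost (adjusted p = 0.122), and Slc29a1 and Slc43a3 added.

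Genes that act beside the carriers were described from lists of other genes. Of 8 tested ion pumps and transporter partners, 1 rose and 0 fell at CD73 gain in Vg1.1+ cells (4.37% and 3.45% of all tested genes). In Vg2+ cells 2 rose and 1 fell (5.82% and 6.41%). There Atp1b3 rose (group means 10.13 and 10.70) and Atp2b4 fell (4.76 and 4.04). For Atp2b4, omitting replicate 1 or 2 of the Vg2+ CD24+CD73- group ended the call (adjusted p 0.0654 to 0.0738). Stk39 rose in both subsets. It encodes SPAK, a kinase known to switch on NKCC1, the product of Slc12a2. Stk39 read 6.71, 6.56, 6.73 and 6.66, 7.83, 8.03 and 7.67 and 6.81, 7.28, 7.36 and 7.28 at the successive Vg1.1+ stages and 6.87, 6.55 and 6.74, 7.88, 7.69, 7.64 and 7.83 and 7.29, 7.04, 7.38 and 7.13 in Vg2+ cells. It rose by 1.18 ± 0.13 (adjusted p = 2.4e-06) and 1.04 ± 0.13 (adjusted p = 8.7e-06), and fell at CD24 loss, with differences of -0.66 ± 0.13 (adjusted p = 0.0017) and -0.55 ± 0.12 (adjusted p = 0.00245). The middle stage was the highest in both subsets, with no overlap with the first. Atp2b4, a calcium pump of the plasma membrane, read 4.15, 4.02, 4.05 and 3.93 and then 5.52, 6.03, 6.52 and 6.65 at CD24 loss in Vg2+ cells, a rise of 2.14 ± 0.18 (adjusted p = 1.3e-08), and was lower in Vg1.1+ than in Vg2+ cells at the last stage (-1.61 ± 0.18 (adjusted p = 1.5e-06)).

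Of 6 tested genes of zinc and iron handling, 1 rose and 1 fell at CD73 gain in each subset. Shares over all tested genes were 4.37% and 3.45% in Vg1.1+, and 5.82% and 6.41% in Vg2+ cells. Tfrc, the transferrin receptor, read 8.28, 8.49, 8.40 and 8.38, 7.58, 7.87 and 7.65 and 6.84, 7.29, 7.35 and 7.35 at the Vg1.1+ stages and 8.48, 8.55 and 8.23, 7.83, 7.499, 7.52 and 7.41 and 6.74, 6.04, 6.96 and 6.75 in Vg2+ cells. It fell at CD73 gain, with differences of -0.69 ± 0.17 (adjusted p = 0.0142) and -0.85 ± 0.17 (adjusted p = 0.00186), and in Vg2+ cells again at CD24 loss (-0.94 ± 0.16 (adjusted p = 1.7e-04)). In Vg1.1+ cells omitting any 1 of replicates 1 and 3 of the Vg1.1+ CD24+CD73+ group ended the call (adjusted p 0.0672 to 0.0871). Steap3, an iron reductase of endosomes, rose by 0.79 ± 0.15 (adjusted p = 0.00139) and 0.63 ± 0.15 (adjusted p = 0.00826). Of 12 tested genes of amino acid sensing and uptake control, none was called at CD73 gain in Vg1.1+ cells and Txnip fell in Vg2+ cells (-0.83 ± 0.26 (adjusted p = 0.0382)). For Txnip, omitting any 1 of replicates 1, 2 and 3 of the Vg2+ CD24+CD73- group and replicates 1, 3 and 4 of the Vg2+ CD24+CD73+ group ended the call (adjusted p 0.0521 to 0.141). At CD24 loss in Vg2+ cells Txnip, which restrains glucose uptake, rose by 1.34 ± 0.24 (adjusted p = 2.5e-04) and Sesn1, a leucine sensor of the sestrin family, by 0.56 ± 0.17 (adjusted p = 0.018). For Sesn1, omitting replicate 3 of the Vg2+ CD24-CD73+ group ended the call (adjusted p = 0.0621).

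Of 14 tested ABC transporters, which do split ATP, 2 rose and 2 fell at CD73 gain in Vg1.1+ cells and 2 rose and 1 fell in Vg2+ cells. Over all tested genes the shares were 4.37% and 3.45% in Vg1.1+, and 5.82% and 6.41% in Vg2+ cells. At CD24 loss 3 rose and 1 fell in Vg1.1+ cells (4.28% and 6.92% of all tested genes). In Vg2+ cells 5 rose and 0 fell (10.3% and 9.91%). Abca1, which exports cholesterol, read 5.18, 4.74, 4.88 and 4.84, 6.07, 6.05 and 6.21 and 6.70, 7.45, 7.57 and 7.57 at the successive Vg1.1+ stages and 5.28, 5.02 and 5.11, 5.90, 5.95, 5.88 and 5.79 and 6.05, 6.04, 6.33 and 6.14 in Vg2+ cells. It rose at CD73 gain by 1.20 ± 0.16 (adjusted p = 3.1e-05) and 0.74 ± 0.16 (adjusted p = 0.00365), and again at CD24 loss in Vg1.1+ cells by 1.21 ± 0.16 (adjusted p = 2.3e-05). Abcb1b, one of the mouse genes for the multidrug exporter, rose at CD24 loss in Vg2+ cells from 4.41, 3.98, 4.44 and 3.96 to 5.29, 5.41, 5.52 and 5.63, by 1.27 ± 0.14 (adjusted p = 4.5e-07). In Vg1.1+ cells Abcb1b fell at CD73 gain (group means 4.79 and 3.98) and also rose at CD24 loss (to 4.45). That later call ended with single arrays omitted, among them each of replicates 1, 2 and 3 of the Vg1.1+ CD24+CD73+ group (adjusted p 0.0926 to 0.137). At the last stage Abca1 was higher in Vg1.1+ cells (1.18 ± 0.15 (adjusted p = 1.0e-05)) and Abcb1b lower (-1.01 ± 0.14 (adjusted p = 2.0e-05)).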

How the data were processed

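RNA of sorted gamma-delta thymocytes was measured on 22 arrays, 1 per sample. The authors deposited log2 values per probe set. Per the submitters' processing notes they come from oligo and RMA, which corrects background, brings arrays to a common distribution and joins the probes of each set. Versions and build are not given in the sources used here. Levels of different genes cannot be ranked on this scale, and the number of arrays limits precision. Of 16755 probe sets, 14996 had a single gene symbol (1019 had several, 740 none) and were used. Each gene kept its probe set of highest mean. All 138 solute carrier genes had 1 probe set and matched RefSeq by gene identifier. RefSeq promoters were at hand for 108 of them.

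Testing required a log2 value above the table median (4.55) on at least 3 arrays, which 8545 genes met. A model with a mean for each group was fitted to the 22 arrays in limma (version 3.58.1, R 4.3.3), with empirical Bayes moderation. Later minus earlier stage, Vg1.1+ minus Vg2+, and the difference of steps were tested two-sided. P-values were adjusted by Benjamini-Hochberg over all tested genes, with a threshold of 0.05 and no minimum fold. Errors are standard errors of log2 differences. Steps of 1 subset share arrays, so they were set side by side and not correlated. The fit was tested on simulated data.

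The solute carrier genes, classes and lists were chosen with earlier results of these data known. The 3 genes that are no carriers were set apart after their names were seen. Named genes are those called in a contrast or the F test, the flattest, those nearest the level, and called genes of the lists, of which a selection is given. The closing section compares other settings: a replicate block, no filter or a stricter one (log2 5.46), moderation with trend and robust options, fits to the compared groups alone, array weights, cyclic loess, array spread as a covariate, and arrays omitted.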

Additional observations from a re-analysis of the deposited data

Results flagged for a closer look

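In the 180 groups of 4 arrays examined for the 45 called solute carrier genes, 10 held an array far from the other 3; chance gives about 1 in 20 groups. Of the 10, 5 were low readings of the narrow array Vg1.1+ CD24-CD73+ replicate 1. There Slc11a2 read 5.75 (next 6.65), Slc25a12 5.58 (next 6.197), Slc25a20 4.55 (next 5.28), Slc25a23 4.38 (next 4.91) and Slc29a1 5.86 (next 6.62). The other narrow array, Vg2+ CD24+CD73+ replicate 3, had a high Slc25a27 of 6.25 (next 6.05). High readings were also found for Slc26a10 in replicate 4 of that group (5.59, next 5.41), Slc30a5 in Vg2+ CD24-CD73+ replicate 4 (6.34, next 6.21) and Slc9b2 in Vg1.1+ CD24-CD73+ replicate 2 (5.62, next 5.14). Slc46a1 was low in replicate 2 of the Vg2+ CD24+CD73+ group (4.22, next 4.72).

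The subsets differed in the CD24-loss step by the test of the difference itself in 3 genes, as Vg1.1+ step minus Vg2+ step: Slc5a3 by 1.32 (log2), Slc9b2 by 1.14 and Slc16a6 by -0.73.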

How the results depend on the processing

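Of 91 calls over the 9 contrasts, none changed direction under any alternative run. Trend and robust moderation kept all 91, the stricter filter all 79 that it still tested, array weights 88, the spread covariate 85, cyclic loess 84, omission of the narrow pair 79, no filter 75, the replicate block 68 and only the groups compared 58; the fits without 1 array kept 1814 of 2002. The cause of each change of count was not tested. Fits to only the groups compared also used fewer arrays and their own estimate of the spread.

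With array weights, of which the estimation stopped before its convergence tolerance, the counts were 34 for CD73 gain and 41 for CD24 loss in Vg1.1+ cells, 20, 16 and 27 for the subsets at the successive stages, 15 and 12 for the differences of the 2 steps, and 91 for the F test. Only the groups compared gave 16 at CD73 gain in Vg2+ cells, 5 and 11 at CD24 loss in Vg1.1+ and Vg2+ cells, and 9 and 7 for the subsets at the first and last stage. The spread covariate gave 31 at CD24 loss in Vg2+ cells, 11 and 25 for the subsets at the first and last stage, and 2 and 5 for the differences of steps. Omission of the narrow pair gave 11 and 25 for the subsets at the first and last stage. Cyclic loess gave 1 and 5 for the differences of steps; it turned 11 higher and 2 lower carriers at CD24-CD73+ into 11 and 4, and 2 and 1 for the difference of CD24-loss steps into 4 and 1.

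Replicate numbers were shared between groups, and the labels do not say whether they pair the samples. Arrays of the same number had deviations correlated at a median r of -0.16 over 51 pairs of arrays (6 over 0.1). The median over 150 pairs of other numbers was 0.04 (65 over 0.1). Such correlations showed no pairing by number, and a shared sort or day was not tested. With the number as a block the count was 7 at CD24 loss in Vg1.1+ cells and 8 for the subsets at CD24-CD73+, and the other counts stayed within 1.5 times.

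With 1 array left out, the counts ran from 11 to 15 and 21 to 33 at CD73 gain in Vg1.1+ and Vg2+ cells, 5 to 15 and 13 to 25 at CD24 loss, 1 to 8, 0 to 5 and 9 to 22 for the subsets at the successive stages, 0 to 1 and 2 to 6 for the differences of steps, and 42 to 68 for the F test. The smallest groups hold 3 arrays, and low signals near the table median limit small differences.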

Other observations

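Solute carrier genes whose mean lay below the level that chose the 138 were also examined. Of 186 such genes, 20 that were not excluded by name passed the testing filter; they passed only through the arrays in which they were high, so their group means are given as a description with no test. Slc27a2, which activates and takes up long-chain fatty acids, had group means of 3.55, 4.91 and 3.72 (log2) at the successive stages of Vg1.1+ cells and 3.67, 4.82 and 3.67 in Vg2+ cells. Slc35d2, a nucleotide sugar carrier of the Golgi, had 3.21, 3.24 and 3.66 in Vg1.1+ and 3.01, 3.48 and 4.88 in Vg2+ cells. Slc22a15 had 3.40, 3.82 and 4.74 in Vg1.1+ and 3.42, 3.66 and 4.41 in Vg2+ cells. Slc25a13, a relative of the aspartate-glutamate exchanger Slc25a12, had 4.57, 4.47 and 4.49 in Vg1.1+ and 4.54, 4.25 and 3.78 in Vg2+ cells. The 4 genes are named for the differences between these means and were chosen after their values were seen.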
